A study of Homo sapiens with 18 samples.

Results

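The comparison set A549 cells kept in an exposure chamber with 0.1 ppm formaldehyde against A549 cells kept in the same chamber with 0 ppm, and asks which transcripts differ when the low dose is the only intended change. It rests on 6 of the 18 arrays of the study, 3 at 0.1 ppm and 3 at 0 ppm, chosen by their labels and compared without pairing. A549 is an established human lung carcinoma line. In all groups the cells grew on membrane inserts at the air-liquid interface, with medium below and humidified gas above, for 72 h, and the experiments were run in random order, 3 for each concentration. A second chamber without formaldehyde, the reference chamber, ran beside every experiment, so the 0.1 ppm and the 0 ppm experiments also have 3 reference cultures each. A549 is 1 tumour-derived line and stands in for alveolar epithelium only as far as such a line does.

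Formaldehyde is a reactive gas that dissolves in the fluid over an epithelium and binds proteins and DNA. Cells bind it to glutathione and oxidise the product with alcohol dehydrogenase 5 and S-formylglutathione hydrolase, and they repair the crosslinks it leaves between protein and DNA. NRF2, a transcription factor that is constantly active in A549 cells through a KEAP1 mutation, drives much of the glutathione and aldehyde-reducing machinery in this line.

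RNA was read on HG-U133 Plus 2.0 arrays with 54675 probesets, as MAS5 signals on a linear scale. Of the A549 markers, 18 of 19 measured genes lay above the median signal. The 6 arrays correlated with each other at Pearson's r of 0.961 to 0.985 over brighter probesets. The log2 signal of the 3' end of actin exceeded that of its 5' end by 5.55, 4.79 and 6.75 in the 0.1 ppm cultures of replicates 1 to 3, against 5.75, 6.07 and 5.88 in the 0 ppm cultures, so the 0.1 ppm arrays spread more widely around the same range. The median within-group SD of the log2 signal was likewise 0.31 at 0.1 ppm and 0.23 at 0 ppm. The raw file of the 0 ppm replicate 2 array carries another date than the rest. Without that array 133 probesets passed above the median in place of 290. Without 0 ppm replicate 3, whose file has the common date, 109 passed, and the part of the date was not tested. Among the reference-chamber arrays, replicate 1 of the 0.1 ppm experiments and replicate 3 of the 0 ppm experiments had low signals at the actin 5' end, with log2 values of 5.90 and 6.85, against 7.75 to 9.70 on the other 16 arrays of the study.

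Few transcripts with a solid signal passed the threshold in the fit used here, and their count depended on the fit. At the study's threshold, an unadjusted two-sided p under 0.05 in limma, 2444 of 54675 probesets passed (4.47%), 968 higher (1.77%) and 1476 lower (2.7%) with formaldehyde, a smaller share than this threshold passes by its definition. After Benjamini-Hochberg adjustment over all probesets 0 passed, and the lowest adjusted p was 0.184. Most of the passing probesets, 2154 (7.88% of the dimmer probesets), lay at or below the median log2 signal of 4.78, a signal of 27.5, where the median within-group SD was 1.19, against 0.30 above it. Above the median 290 of 27337 passed (1.06%), 81 higher (0.296%) and 209 lower (0.765%), and the probesets nearest to this limit on either side both had a mean log2 signal of 4.78. With a mean log2 signal of at least 9, 22 of 11117 passed (0.198%), 3 higher (0.027%) and 19 lower (0.171%). The balance shifted with scaling. After quantile normalization 136 of 309 passing probesets above the median were higher and 173 lower. The count above the median was 109 without 0 ppm replicate 3 and 480 without 0.1 ppm replicate 3.

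**Figure D1:**
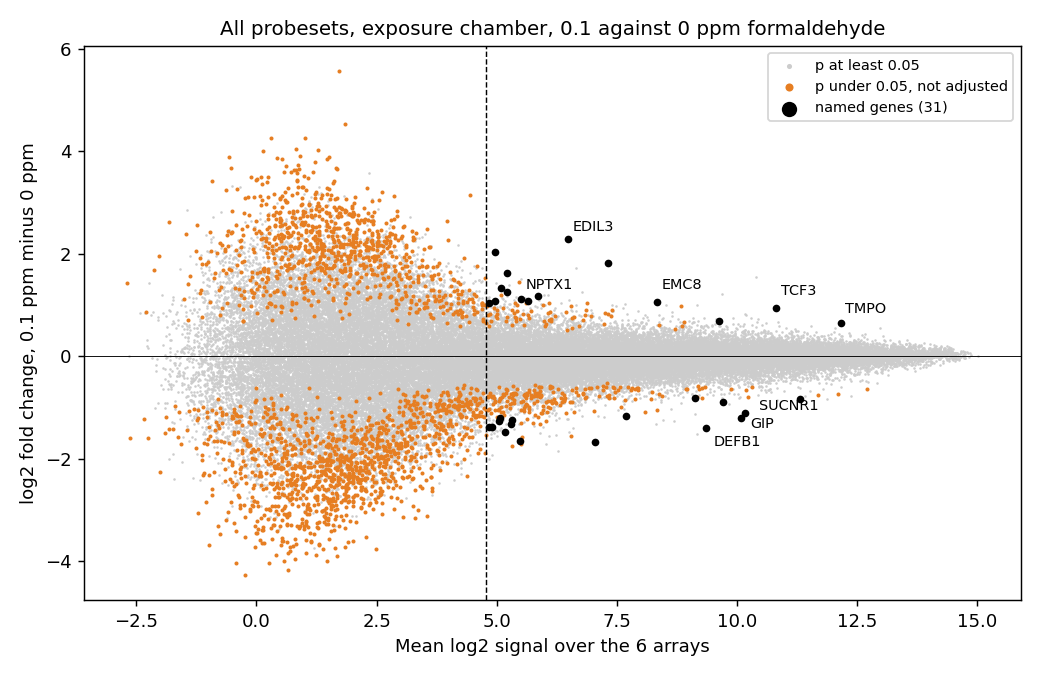
Mean log2 signal over the 6 arrays (horizontal axis) and log2 fold change of 0.1 ppm minus 0 ppm (vertical axis) for each of 54675 probesets, orange where the unadjusted p was under 0.05 and black for the 31 genes named by size of change. The dashed line is the median signal of 4.78, and most orange points lie to its left, where the fold changes scatter most.

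The 24 genes with the largest differences above the median signal, 12 in each direction, and up to 6 in each direction of at least log2 9 in mean signal were named among probesets that passed the threshold and whose groups did not overlap, 31 genes in all. Over all probesets above the median, 2000 had groups that did not overlap (7.32%), and 1.03% passed as well. The adjusted p of the 31 genes ranged from 0.668 to 1, so each is a call at the unadjusted threshold only. Of the 31, 10 passed in all 6 fits that each left out 1 array: RIPPLY3, NPTX1, EMC8, ETV6, DEFB1, TMEM105, PRDX6-AS1, SCARB1, MYO7B and GIP. The other 21 lost the call in at least 1 of these fits. Of all 290 passing probesets above the median, 31 passed in all 6, and the named genes had also been chosen for size and lack of overlap. With all 18 arrays in the fit, ETV6, TMEM105 and GIP lost the call.

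Among brightly measured genes, DEFB1 on chromosome 8 fell the most. It encodes beta-defensin 1, an antimicrobial peptide that epithelia make constitutively. Its signals were 291, 534 and 429 in the 0.1 ppm cultures, against 935, 1220.3 and 1079.5 in the 0 ppm cultures, so the highest exposed culture stayed below the lowest unexposed one. The log2 fold change was -1.40 ± 0.31 (SE, adjusted p = 0.723), 2.64-fold lower with formaldehyde. GIP on chromosome 17, the precursor of a gut hormone that raises insulin release, had signals of 754, 495 and 993 at 0.1 ppm, against 1341, 1751 and 1954 at 0 ppm. All 3 exposed cultures lay below all 3 unexposed ones, with a log2 fold change of -1.21 ± 0.34 (SE, adjusted p = 0.97). With all 18 arrays in the fit DEFB1 kept its call and GIP lost it. Both genes have 1 probeset on the array.

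SUCNR1, a G protein-coupled receptor for succinate, had signals of 914, 469.7 and 1123 at 0.1 ppm, against 1285, 2078 and 1798 at 0 ppm. It fell by 1.10 on the log2 scale (SE 0.41, adjusted p = 1), and replicate 2 was the lowest of the exposed cultures. CRELD2, a protein of the endoplasmic reticulum that rises under folding stress, had 844, 503 and 559.5 at 0.1 ppm, against 892, 1619 and 1056 at 0 ppm. The groups lay close to each other there, and the log2 fold change was -0.89 ± 0.35 (SE, adjusted p = 1). AKIP1, which binds protein kinase A, fell by 0.84 on the log2 scale (SE 0.30, adjusted p = 1), and LINC00957, a long non-coding RNA, by 0.83 (SE 0.33, adjusted p = 1), a call that LINC00957 lost in each fit without 1 array.

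The other large falls were in genes of lower signal. SCARB1, the receptor for high-density lipoprotein, had 28.5, 30.7 and 17.4 at 0.1 ppm, against 72.1, 70.0 and 47.99 at 0 ppm (log2 fold change -1.33 ± 0.33 SE, adjusted p = 0.862). MYO7B, a myosin of the brush border, had 16.4, 29.5 and 35.9, against 53.7, 67.6 and 64.7 (log2 fold change -1.25 ± 0.36 SE, adjusted p = 0.983). F10, coagulation factor X, had 34.2, 13.8 and 20.5, against 36.4, 56.8 and 66.2 (log2 fold change -1.27 ± 0.43 SE, adjusted p = 1). In each the exposed cultures were all lower, by little in F10, whose highest exposed value nearly reached the lowest unexposed one. The rest were NALF1, a partner of the sodium leak channel NALCN, at -1.68, C3orf85 at -1.66, RNF122, a RING finger protein, at -1.48, TMEM105 and the antisense RNA PRDX6-AS1, both at -1.38, RBMS3, an RNA-binding protein, at -1.21, and KRTCAP2, a subunit of the oligosaccharyltransferase complex, at -1.17 on the log2 scale. The mean log2 signals of TMEM105, PRDX6-AS1 and RBMS3 were 4.85, 4.9 and 5.07, close to the median of 4.78.

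Of the genes that rose, EMC8 lies on chromosome 16. It encodes a subunit of the complex that inserts proteins into the endoplasmic reticulum membrane. Its signals were 498, 466 and 438 at 0.1 ppm, against 200.2, 255 and 223 at 0 ppm, with no exposed culture near an unexposed one (log2 fold change 1.05 ± 0.22 SE, adjusted p = 0.668). NPTX1, a neuronal pentraxin, had 67.6, 67.9 and 66.1 at 0.1 ppm, against 25.6, 35.8 and 32.9 at 0 ppm (log2 fold change 1.11 ± 0.23 SE, adjusted p = 0.668). RIPPLY3, a co-repressor that works with T-box factors, had 42.1, 78.3 and 47.2, against 22.9, 21.8 and 19.9 (log2 fold change 1.32 ± 0.31 SE, adjusted p = 0.801). The exposed NPTX1 values were nearly equal, whereas RIPPLY3 was highest in replicate 2.

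KRT19, a keratin of simple epithelia, rose to 63.0, 93.4 and 115 at 0.1 ppm, against 37.0, 61.1 and 26.4 at 0 ppm (log2 fold change 1.17 ± 0.41 SE, adjusted p = 1). EDIL3, a secreted matrix protein that binds integrins, had the largest rise, with 203, 60.6 and 625 against 46.8, 49.0 and 28.9 (log2 fold change 2.29 ± 0.87 SE, adjusted p = 1). The exposed EDIL3 cultures differed from each other by more than replicate 2 differed from the 0 ppm cultures. The remaining rises were MED15P9, a pseudogene, at 2.02, TIPRL, a regulator of PP2A-type phosphatases, at 1.81, WARS2, the mitochondrial tryptophanyl-tRNA synthetase, at 1.62, C8orf48 at 1.24, CNOT2, a subunit of the CCR4-NOT deadenylase complex, and NAA30, an N-terminal acetyltransferase, both at 1.08, and ETV6, a repressor of the ETS family, at 1.05. The mean log2 signals of MED15P9, NAA30 and ETV6 were 4.97, 4.97 and 4.84, close to the median of 4.78.

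Only 3 probesets of at least log2 9 in mean signal passed as higher in this fit. TCF3, a basic helix-loop-helix factor, had 2219, 3038 and 2332 at 0.1 ppm, against 1347, 1674 and 991 at 0 ppm (log2 fold change 0.94 ± 0.29 SE, adjusted p = 1). BLM, the RecQ helicase mutated in Bloom syndrome, had 852, 1001 and 1188, against 767, 526 and 611 (log2 fold change 0.68 ± 0.26 SE, adjusted p = 1). TMPO, a protein that tethers the nuclear lamina, had 6142, 5088 and 6017, against 4392, 3878 and 2869 (log2 fold change 0.65 ± 0.26 SE, adjusted p = 1). These 3 groups of values did not overlap, though BLM came close to it.

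**Figure D2:**
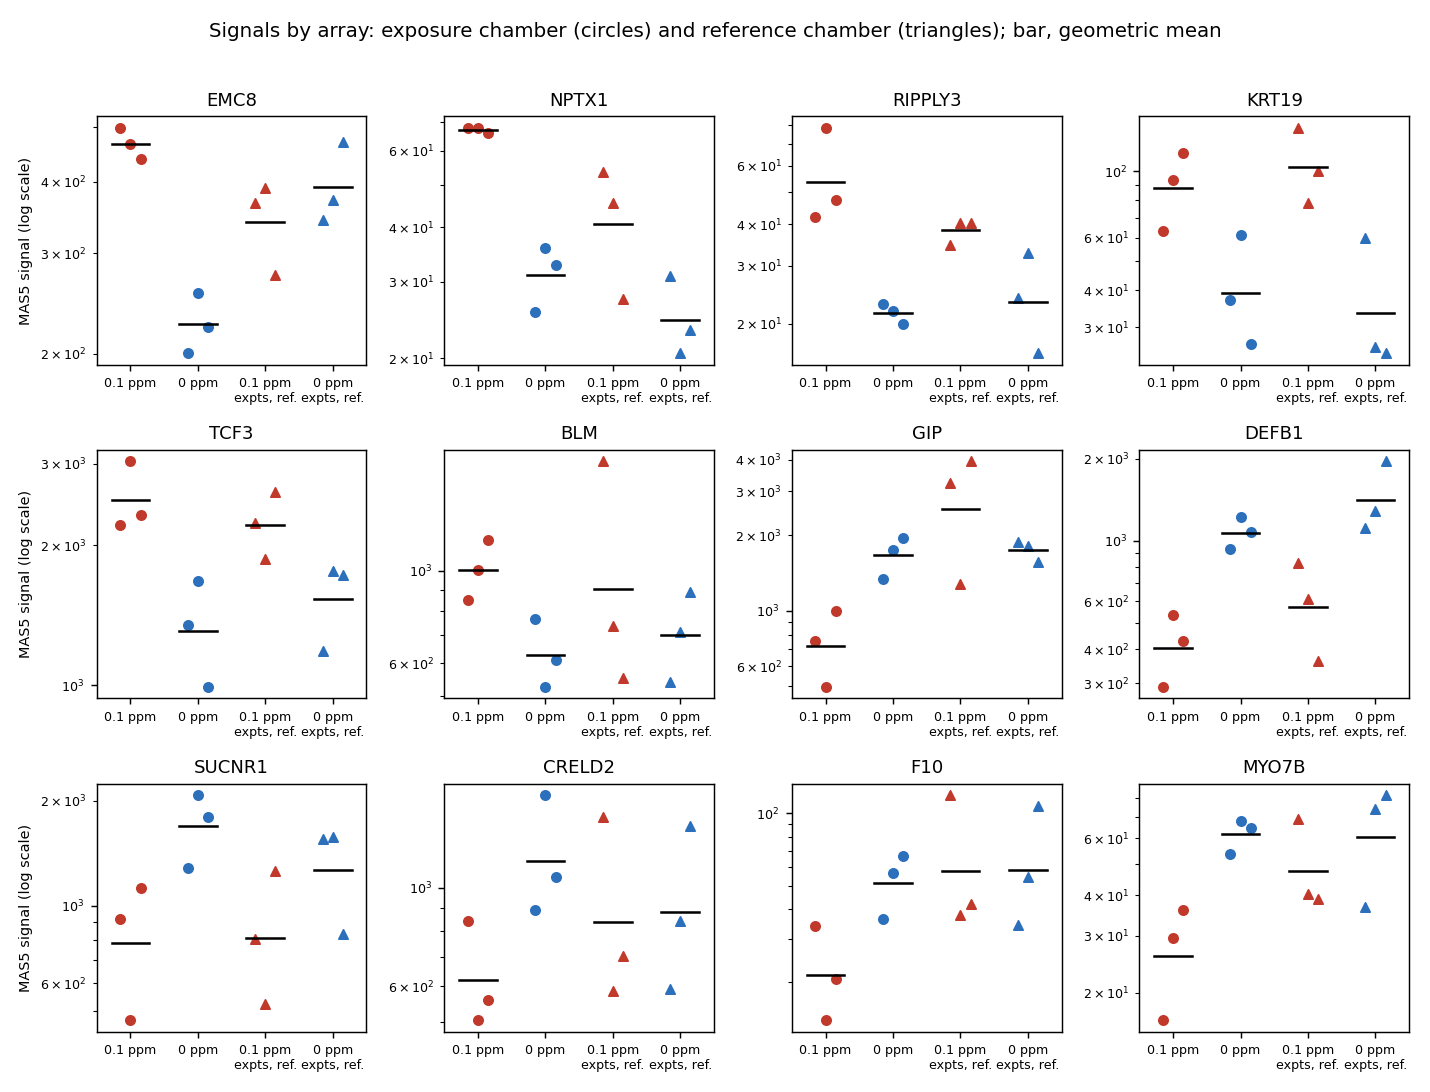
MAS5 signal on a log axis (vertical) of 12 named genes in each culture, with circles for the exposure chamber and triangles for the reference chamber, red for the 0.1 ppm and blue for the 0 ppm experiments, and bars at the geometric mean. In the exposure chamber the red and blue circles of all 12 genes are apart, which was a condition for naming them. In the reference chamber EMC8 and GIP run the other way round and DEFB1 and KRT19 the same way.

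Other probesets of the same genes often did not follow. Of the 31 genes, 14 have 1 probeset, and in 10 the named probeset was not the brightest of its gene. In these 10 the brightest probeset passed the threshold in 0, and its absolute log2 fold change reached 0.5 in 0. The 2 brighter EMC8 probesets, for example, had log2 fold changes of -0.02 and -0.09, and the brightest TIPRL probeset had -0.34 where the named one had 1.81. Of the genes whose named probeset was the brightest, TMPO had 0.38 at its next brightest probeset, NALF1 had -0.75 at its other one and AKIP1 had -0.0046. The named probesets of TIPRL, SCARB1, TCF3 and AKIP1 are of the class that may bind related transcripts, so these names are uncertain.

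The same test was run between the reference chambers of these experiments, where neither set of cultures met formaldehyde. There 2014 probesets passed (3.68%), 57 of them above the median signal (0.209%). This too is a smaller share than the threshold passes by its definition. Among the 290 probesets that passed above the median in the exposure chamber, 210 had the same sign between the reference chambers (72.4%), against 61.4% of all probesets above the median, and 7 passed in both, each with the same sign. Of the 31 named genes 26 had the same sign and 4 passed. DEFB1 was lower by 1.31 on the log2 scale in the reference cultures of the 0.1 ppm experiments, with 832, 612 and 363 against 1111, 1290.2 and 1956. KRT19 was higher there by 1.62, MED15P9 by 2.49 and C8orf48 by 1.16, which makes up the 4, while EDIL3 had 1.90 and did not pass. The lowest adjusted p between the reference chambers was 0.499. Without the 2 reference arrays of low actin 5' signal, left out after seeing the data, DEFB1 had -1.34 and still passed, and KRT19 had 1.17 and did not.

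The difference between chambers was then compared between the 0.1 ppm and the 0 ppm experiments over all 12 arrays. Each culture in the exposure chamber ran beside a reference culture, but the fit took all groups as independent and ignored this pairing. The chamber difference passed for 1754 probesets (3.21%), with a lowest adjusted p of 0.316, and for 2 of the 31 genes. The 31 were chosen on the exposure-chamber difference that forms one side of this contrast, and of the 290 probesets that passed there above the median 26 (8.97%) passed here as well, a share that 2 of 31 does not exceed. EMC8 differed by 1.25 ± 0.37 (SE) and GIP by -1.75 ± 0.62 (SE) on the log2 scale, both with an adjusted p of 1. In the reference cultures EMC8 had 368, 390.5 and 275 in the 0.1 ppm experiments, against 344, 372 and 470.3 in the 0 ppm experiments, and GIP had 3237, 1279 and 3953, against 1888, 1815 and 1564. GIP was also the only 1 of the 31 that passed between 0.1 ppm and its own reference chamber, at -1.82 ± 0.56 (SE) on the log2 scale. That comparison shares the 0.1 ppm arrays and was fitted without pairing too. Without both reference arrays of low actin 5' signal, the chamber difference was 1.18 for EMC8, which still passed, and -1.49 for GIP, which did not. For DEFB1 it was -0.10 over all 12 arrays.

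**Figure D3:**
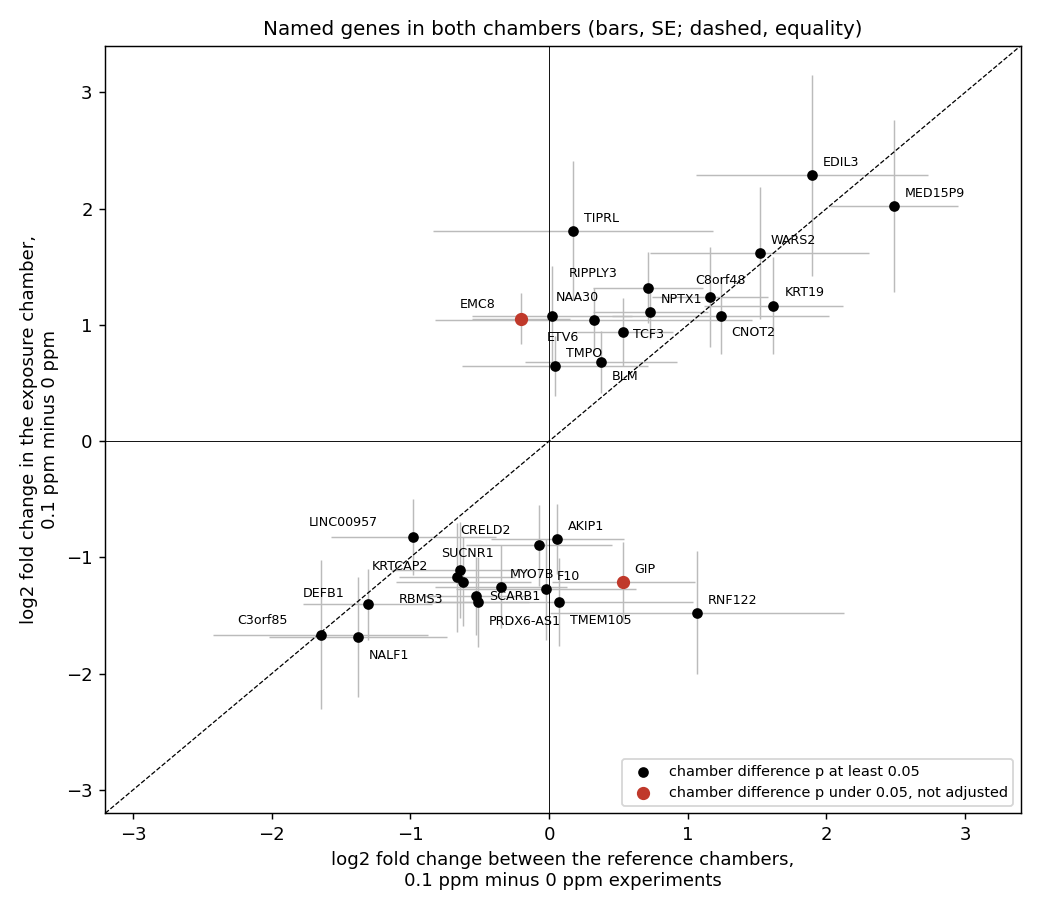
log2 fold change between the reference chambers (horizontal axis, 0.1 ppm minus 0 ppm experiments) and in the exposure chamber (vertical axis, 0.1 ppm minus 0 ppm) of the 31 named genes, with SE bars and a dashed line where both are equal. DEFB1, MED15P9 and KRT19 lie near the line, while EMC8 and GIP, in red, lie off it and were the 2 genes whose chamber difference passed at an unadjusted p under 0.05.

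The comparison of 0.5 with 0 ppm uses the same 0 ppm arrays, so its values are only set beside these. DEFB1 had a log2 fold change of -1.40 at 0.1 ppm and -1.31 at 0.5 ppm, KRT19 had 1.17 and 1.05, and EDIL3 had 2.29 and 1.81. EMC8 had 1.05 at 0.1 ppm and 0.54 at 0.5 ppm, and GIP had -1.21 and -0.18.

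Gene lists were read through the brightest probeset of each gene. Of 12337 genes above the median signal 121 passed (0.981%), 28 higher (0.227%) and 93 lower (0.754%), and their median log2 fold change was -0.03. Of the genes that handle formaldehyde and other aldehydes, 0 of the 22 above the median passed, 13 were higher and 9 lower, and their median was 0.04. With 32 added before log2, with an intensity trend or with only probesets above the median fitted, 1 of the 22 passed. With all 18 arrays or a replicate block 0 passed. ADH5, the glutathione-dependent formaldehyde dehydrogenase, had a log2 fold change of -0.07 with a 95% interval of -0.64 to 0.49, ESD, the hydrolase of the next step, had 0.02 (-0.54 to 0.58) and ALDH2, the mitochondrial aldehyde dehydrogenase, had -0.004 (-0.54 to 0.53). ALDH1L2, which oxidises formyl-tetrahydrofolate in mitochondria, had the largest value, 0.79 (-0.22 to 1.79).

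Calls in stress programmes that reactive aldehydes can induce stand beside the 0.981% of all genes above the median that passed. In lists of this size such counts cannot be told from that share. Of 29 NRF2 targets and glutathione or thioredoxin genes 0 passed, with a median of 0.03 and a range of -0.32 for OSGIN1 to 0.26 for GSTM3. HMOX1, heme oxygenase 1, had 0.00 (-0.66 to 0.67) and GCLM, which limits glutathione synthesis, had 0.05 (-0.49 to 0.58). Of 16 heat shock proteins 0 passed, and of 20 p53 targets 0 passed, where GDF15, a stress-induced cytokine, had 0.75 (adjusted p = 1). In the unfolded protein response CRELD2 was the 1 of 28 genes that passed. In DNA crosslink repair BRCA1, which acts in homologous recombination, was the 1 of 29 that passed. BRCA1 had signals of 649, 621 and 661 at 0.1 ppm, against 409.8, 324 and 263 at 0 ppm, with nearly equal exposed values (log2 fold change 0.98 ± 0.25 SE, adjusted p = 0.884). Its difference between the reference chambers was 0.09, and the chamber difference of 0.89 ± 0.48 (SE) did not pass.

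Genes of proliferation were mostly higher without any passing alone in this fit. With 32 added before log2, 2 mitosis and 4 replication genes passed, and with an intensity trend 3 and 2. With all 18 arrays or a replicate block 0 passed in either list. Of 40 mitosis genes 39 were higher at 0.1 ppm and 1 was lower (median 0.23 on the log2 scale), and of 39 genes of DNA replication and S phase 32 were higher and 7 lower (median 0.27). KIF23, a kinesin of the cytokinetic midzone, had the largest mitotic value, with signals of 413, 522 and 403 at 0.1 ppm, against 383, 223 and 193 at 0 ppm (log2 fold change 0.80 ± 0.34 SE, adjusted p = 1). UHRF1, which keeps DNA methylation through replication, had 1583, 5827 and 807, against 2131, 1152 and 799 (log2 fold change 0.64 ± 0.81 SE, adjusted p = 1), and its log2 fold change was -0.15 without replicate 2 at 0.1 ppm. Without 0.1 ppm replicate 2 the medians were 0.08 for mitosis and -0.01 for replication, with 30 of 40 and 16 of 39 genes higher. Without 0 ppm replicate 3 they were 0.16 and 0.13. Of all genes above the median signal 43.03% were higher. Between the reference chambers, without formaldehyde, 37 of 40 and 34 of 39 were higher, with medians of 0.15 and 0.09.

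Promoters of the 2 lists carry the elements that such genes are known for, shown here for the gene of the largest log2 fold change in each list whose RefSeq promoter of 300 bases (GRCh38.p14, 250 bases before the start site and 50 after it) holds one. Capitals mark the CCAAT box (CCAAT), the cell cycle homology region (TTTGAA) and the E2F forms TTTGGCGC and TTTCCCGC, each searched on both strands with overlaps allowed. KIF23 lies at chr15:69414099-69414398 and UHRF1 at chr19:4909251-4909550, both on the plus strand.
KIF23: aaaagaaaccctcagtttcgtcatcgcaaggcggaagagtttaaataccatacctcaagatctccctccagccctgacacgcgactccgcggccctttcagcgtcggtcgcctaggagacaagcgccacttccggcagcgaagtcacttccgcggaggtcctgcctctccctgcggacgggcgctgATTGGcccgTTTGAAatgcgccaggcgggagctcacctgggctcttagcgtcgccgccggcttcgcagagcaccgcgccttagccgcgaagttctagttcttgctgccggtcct
UHRF1: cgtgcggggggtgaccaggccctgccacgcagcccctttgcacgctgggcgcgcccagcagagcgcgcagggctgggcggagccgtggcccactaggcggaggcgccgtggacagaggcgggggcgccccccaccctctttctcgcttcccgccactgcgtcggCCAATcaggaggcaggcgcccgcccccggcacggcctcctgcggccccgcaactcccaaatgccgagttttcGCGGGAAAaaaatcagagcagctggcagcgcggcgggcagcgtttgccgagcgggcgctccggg
KIF23 has a CCAAT box on the minus strand beside a cell cycle homology region, and UHRF1 has a CCAAT box and the second E2F form on the minus strand. Of the mitosis genes above the median, 33 matched a promoter, 27 held CCAAT (81.8%) and 25 held TTTGAA (75.8%), against 35.6% and 15.6% of all 27305 promoters. Of 33 replication genes 8 held TTTGGCGC (24.2%) and 8 held TTTCCCGC (24.2%), against 0.656% and 1.62% of all promoters. These matches describe the lists and not their response to formaldehyde.

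Replicate 2 at 0.1 ppm stood apart in several lists at once. The median log2 signal of the 22 immediate early genes, which respond within minutes to growth factors and handling, was 0.72 above the mean of the 6 arrays in that culture and -0.03 and -0.27 in the other two exposed cultures, against 0.20, -0.15 and -0.51 at 0 ppm. In the same culture the gut lineage and hepatic secreted proteins, which A549 cells express, stood at -0.72, against 0.07 and 0.10 in the other two exposed cultures. The reference culture of the same number also had high immediate early and low gut lineage medians, 0.60 and -0.55. This pair of cultures had the lowest actin 3' to 5' log2 differences of their chambers, 4.79 at 0.1 ppm and 4.24 in its reference, and the part of this in the list values was not tested. Of the immediate early genes 19 of 22 were higher and their median was 0.32 on the log2 scale, which was 0.0028 without that replicate and 0.06 without 0 ppm replicate 3. Between the reference chambers 16 of 22 were higher. CCN2, a matricellular growth factor, was the 1 that passed, with 321, 164 and 181 at 0.1 ppm, against 115, 132 and 114 at 0 ppm (log2 fold change 0.82 ± 0.33 SE, adjusted p = 1). It lost the call in 5 of the 6 fits without 1 array, with all 18 arrays and with a replicate block.

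In the secretory lists most genes were lower, where 43.03% of all genes above the median were higher. Of 22 gut lineage and hepatic genes 19 were lower and 1, GIP, passed, and the median was -0.22, which was 0.04 without 0.1 ppm replicate 2. TTR, the thyroid hormone carrier, had -0.76 (-2.37 to 0.85) and CFB, complement factor B, had -0.67 (-1.67 to 0.34). Of 16 mucins and airway secretion genes 12 were lower and 0 passed, with a median of -0.27, which was -0.09 without 0.1 ppm replicate 2, and FOXA3, a factor of goblet cell differentiation, had the largest value at -0.81 (adjusted p = 1). Between the reference chambers the 2 medians were -0.22 and -0.25, with 7 of 22 and 3 of 16 genes higher. Fewer A549 cells that express these genes and less RNA per cell cannot be told apart in these bulk cultures.

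**Figure D4:**
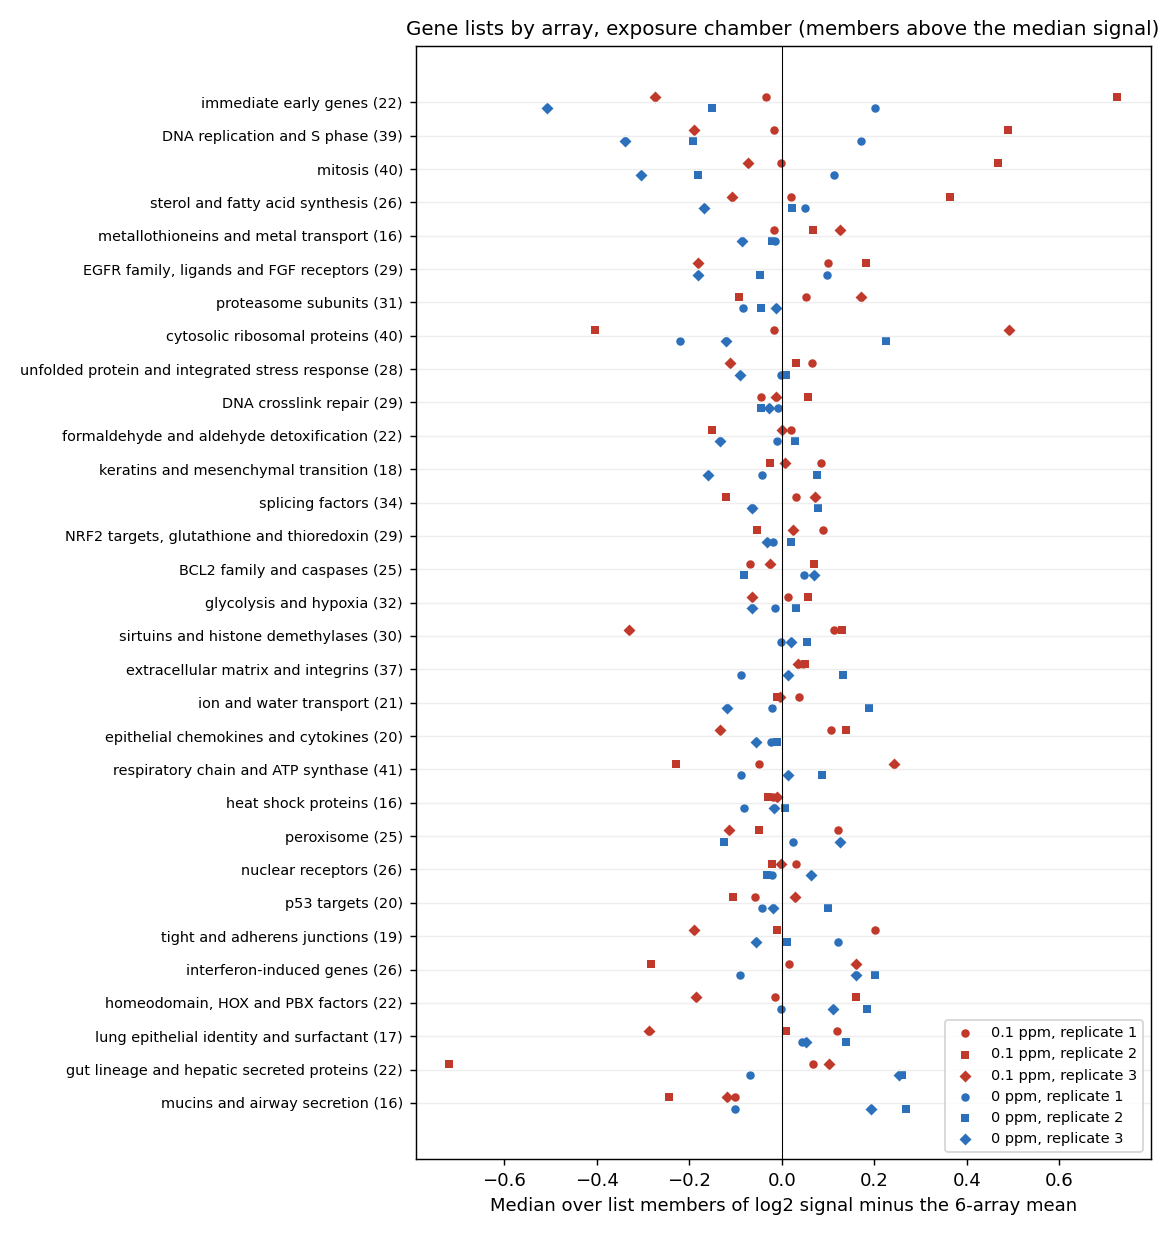
Median log2 signal of each gene list relative to the mean of the 6 arrays (horizontal axis), 1 symbol for each exposure-chamber culture, red for 0.1 ppm and blue for 0 ppm, with the number of genes above the median signal in brackets. Replicate 2 at 0.1 ppm, the red square, lies far right for immediate early genes at 0.72 and far left for gut lineage and hepatic genes at -0.72.

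The cytosolic ribosomal proteins varied more between replicates than between doses. Their medians were -0.02, -0.40 and 0.49 at 0.1 ppm, against -0.22, 0.23 and -0.12 at 0 ppm, and the lowest and highest belonged to the cultures with the lowest and highest actin ratio, 4.79 and 6.75. The list's median log2 fold change was 0.07 with 33 of 40 genes higher, and -0.19 with 1 of 40 higher without 0.1 ppm replicate 3. It was 0.29 without 0.1 ppm replicate 2, -0.04 without 0 ppm replicate 1, 0.21 without 0 ppm replicate 2, 0.0057 without 0 ppm replicate 3 and 0.01 after quantile normalization. The part of RNA quality in this was not tested.

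Of the 31 lists apart from cell type markers, 24 had no member past the threshold above the median signal and 7 had 1. Of all genes above the median 0.981% passed, and whether any list differs from that share was not tested. ITGA2, the collagen-binding integrin alpha 2, was the 1 of 37 matrix and integrin genes, with 609, 649 and 456 at 0.1 ppm, against 386, 369 and 369 at 0 ppm (log2 fold change 0.59 ± 0.24 SE, adjusted p = 1). RXRB, a partner of many nuclear receptors, was the 1 of 26 nuclear receptors, with 47.9, 40.5 and 36.3, against 75.1, 64.2 and 144 (log2 fold change -1.10 ± 0.37 SE, adjusted p = 1). Without 1 array in turn ITGA2 lost the call in 5 of 6 fits and RXRB in 3 of 6, whereas BRCA1 lost it in 0. Both ITGA2 and RXRB lost it with a replicate block, and ITGA2 also with all 18 arrays. Both sets of values were apart, and in RXRB 0 ppm replicate 3 was well above the other two unexposed cultures. Of 20 epithelial chemokines and cytokines above the median 0 passed, and CXCL8, interleukin 8, had -0.02 (-0.56 to 0.53). At or below the median 12 list or marker genes passed, with signals from 0.378 to 33.8, around or under the median of 27.5. CXCL10, an interferon-induced chemokine, had the lowest, with 3.26, 3.81 and 5.88 at 0.1 ppm, against 1.78, 0.378 and 0.724 at 0 ppm.

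Most markers of other cell types lay below the median signal. Of 10 fibroblast, 10 endothelial and 10 leukocyte markers measured, 1, 1 and 3 lay above it, namely COL1A1, PECAM1, and LYZ, ITGAM and CD14. The leukocyte list summed to 4467, 2277 and 2622 at 0.1 ppm, against 4406, 4833 and 6839.6 at 0 ppm. Most of this sum was LYZ, lysozyme, which airway epithelium also makes, with a log2 fold change of -0.84 (adjusted p = 1). ITGAM, an integrin of myeloid cells, had 82.6, 52.9 and 120.5 at 0.1 ppm, against 78.0, 230.0 and 165 at 0 ppm (log2 fold change -0.83 ± 0.52 SE, adjusted p = 1), with groups that overlapped, and CD14 had 0.02.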

How the data were processed

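RNA from 18 cultures was amplified, biotin-labelled and hybridised to HG-U133 Plus 2.0 arrays. The authors made 1 intensity per probeset and array with MAS5 in R's affy package and deposited it on a linear scale, scaled so that the mean without the lowest and highest 2% was 500. Detection calls were not used here.

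Signals were taken as log2 without an offset, and 3 against 3 arrays were fitted with limma 3.58.1 in R 4.3.3 (lmFit, eBayes, all 54675 probesets, two-sided). The threshold was the study's unadjusted p under 0.05, with Benjamini-Hochberg adjustment over all probesets beside it. The number of arrays limits the precision. Samples were grouped by their labels. Each replicate is a separate experiment. The fit was tested on simulated data.

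Probesets were named from GEO's platform annotation, where 41097 name 1 gene, 1801 several and 11777 none. A gene list used each gene's brightest probeset. Named genes had a mean log2 signal above the median, p under 0.05 and no overlap: the 12 largest changes each way, up to 6 each way at log2 9 or more, and the list members that passed or, where none did, the 2 that changed most. Members and lists were chosen with earlier results of these data known. Alternatives were quantile normalization, 32 added before log2, a fit above the median only, an eBayes trend, all 18 arrays, a replicate block and each array left out.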

Additional observations from a re-analysis of the deposited data

Results flagged for a closer look

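EMC8 and GIP were the 2 named genes whose difference in the exposure chamber differed from that between the reference chambers at the study's unadjusted threshold. The log2 difference of 0.1 minus 0 ppm in the exposure chamber, less that in the reference chamber, was 1.255 for EMC8 (limma, adjusted p = 1) and -1.746 for GIP (adjusted p = 1). In the exposure chamber EMC8 was higher at 0.1 ppm, and between the reference chambers it had a log2 difference of -0.20. GIP was lower at 0.1 ppm in the exposure chamber and had 0.54 between the reference chambers. Lack of overlap between exposed and unexposed cultures was a condition for naming both genes. With all 18 arrays in the fit EMC8 kept its exposure-chamber call and GIP lost it. The brighter EMC8 probesets had log2 fold changes of -0.02 and -0.09 in the exposure chamber. Without both reference arrays of low actin 5' signal, the chamber difference was 1.18 for EMC8, which still passed, and -1.49 for GIP, which did not. The fit ignored the pairing of chambers within an experiment. Both genes were chosen for their exposure-chamber difference, which is part of this contrast. Of the 290 probesets chosen in that way without regard to size, 26 (8.97%) passed it too.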

How the results depend on the processing

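Above the median signal, 290 probesets passed. The count was 1307 with 32 added before log2, 903 with only these probesets fitted, 759 with an intensity trend in eBayes, and 109 (without 0 ppm replicate 3) to 480 (without 0.1 ppm replicate 3) with 1 array left out, the cause of which was not tested. In a replicate block it was 157, but nothing in the labels beyond a shared number ties the arrays of both doses. The deviations of same-numbered arrays from their group means correlated at 0.051, -0.097 and 0.291. These values cannot decide on a pairing, because exposure-chamber cultures and their same-numbered references correlated in an overlapping range. Those values were 0.052, 0.489 and 0.003 at 0.1 ppm and 0.302, 0.005 and 0.319 at 0 ppm. Over all probesets the count of 2444 ran from 1922 to 2944 under all alternatives run, that between reference chambers from 1879 to 2702 and that of the chamber difference from 1666 to 2135. The highest of the reference counts, 2702, came without both arrays of low actin 5' signal, a choice made after seeing the data. With 1 array left out, 5 log2 fold changes turned sign. UHRF1 ran from -0.1476 to 1.279, RPL29 from -0.02151 to 0.4903, PIGR from -1.165 to 0.08337, U2AF2 from -0.9553 to 0.05215 and PECAM1 from -0.1664 to 0.7236. Of the 31 named genes, 30 passed with an intensity trend, 28 after quantile normalization, 21 with the replicate block and 17 with all 18 arrays in the fit. No detection calls were used, so signals below the median of 27.5 were not separated from background.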
